A study of Mus musculus with 6 samples.

Results

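The 10 genes described here encode proteins that coat the lipid droplet or break down the triglyceride inside it. They were chosen by name from the deposited table, which lists 33919 genes, and all 10 were found and passed the low-count filter. The coat proteins are encoded by Plin1, Plin2, Plin4, Plin5 and Cidec, the lipases by Pnpla2, Lipe and Mgll, and regulators of the first lipase by Abhd5 and G0s2. Their transcripts were compared between 3 libraries from mice labelled KO and 3 libraries from mice labelled WT. All the libraries are labelled as aorta, and all the mice were given angiotensin II (Ang II). Ang II is a pressor peptide under which the vessel wall remodels. The series title names endothelial OTUD1, a deubiquitinating enzyme, so the comparison asked how the Ang II-treated tissue differed with this genotype. Both groups received Ang II, and no group without it was analysed here. The labels give the allele only as KO, with no driver of the deletion, strain, sex or age.

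Cells store fatty acids as triglyceride in droplets wrapped in a phospholipid monolayer and a protein coat. Perilipins sit on this coat and control which lipases reach the core. In adipocytes perilipin 1 holds ABHD5 until protein kinase A phosphorylates it, after which ABHD5 activates the triglyceride lipase ATGL (Pnpla2), hormone-sensitive lipase (Lipe) cleaves the diglyceride, and monoglyceride lipase (Mgll) releases the last fatty acid. G0S2 binds and inhibits ATGL. Perilipin 5 is known from oxidative tissues such as heart, skeletal muscle and brown fat, where it links droplets to mitochondria, and CIDEC fuses small droplets into large ones in fat cells.

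The 10 genes lie on 6 chromosomes, at positions given as in the deposited table (GRCm38). Plin4 (chromosome 17, 56100591 to 56109803) and Plin5 (chromosome 17, 56111601 to 56117596) are neighbours on the minus strand, 1797 bases apart. Plin1 (79720218 to 79732835), Pnpla2 (141455198 to 141460743) and Lipe (25379527 to 25398710) lie on chromosome 7, and Mgll (88724412 to 88828360) and Cidec (113424634 to 113435760) on chromosome 6. Plin2 (86648386 to 86670060) is on chromosome 4, Abhd5 (122351608 to 122381524) on chromosome 9 and G0s2 (193272161 to 193273217) on chromosome 1. RefSeq promoter windows (GRCm38.p6), from 250 bases before to 50 bases after a transcription start, were found for all 10 genes, 14 windows in total. Plin4 and Plin5, whose transcripts were both higher in KO-labelled libraries, and Plin2, whose level did not differ detectably, are the members with a CCAAT box, the letters bound by the factor NF-Y. Their windows are shown 5′ to 3′ on the strand of the gene, which is minus for all of them, with CCAAT or its reverse complement ATTGG in capitals.
Plin4, chr17:56109733-56110032: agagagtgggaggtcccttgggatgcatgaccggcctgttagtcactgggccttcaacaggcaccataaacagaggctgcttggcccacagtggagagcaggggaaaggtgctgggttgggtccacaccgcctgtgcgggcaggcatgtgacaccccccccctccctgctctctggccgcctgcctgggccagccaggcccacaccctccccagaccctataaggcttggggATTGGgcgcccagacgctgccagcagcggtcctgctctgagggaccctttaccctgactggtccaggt
Plin5, chr17:56117499-56117798: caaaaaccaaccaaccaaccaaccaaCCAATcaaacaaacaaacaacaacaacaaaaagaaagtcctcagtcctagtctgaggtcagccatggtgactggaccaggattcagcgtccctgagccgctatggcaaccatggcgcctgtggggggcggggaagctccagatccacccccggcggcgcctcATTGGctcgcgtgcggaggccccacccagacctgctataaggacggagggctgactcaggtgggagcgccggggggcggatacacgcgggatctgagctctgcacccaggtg
Plin2, chr4:86670010-86670309: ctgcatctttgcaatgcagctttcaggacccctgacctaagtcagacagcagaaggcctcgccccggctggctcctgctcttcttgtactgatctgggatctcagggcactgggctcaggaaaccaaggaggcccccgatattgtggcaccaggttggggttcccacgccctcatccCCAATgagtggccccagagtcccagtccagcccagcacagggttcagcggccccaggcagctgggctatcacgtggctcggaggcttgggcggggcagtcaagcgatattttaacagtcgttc

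CCAAT on either strand was present in 37.4% of all 32851 windows in the table, and in 3 of the 14 windows of these genes. The lipase genes Lipe and Mgll, whose transcripts moved in opposite directions, each had a window with TGTTTAC, the core letters bound by FOXO factors, on either strand. These windows are shown in the direction of the gene, minus for Lipe and plus for Mgll, with TGTTTAC or its reverse complement GTAAACA in capitals.
Lipe, chr7:25390063-25390362: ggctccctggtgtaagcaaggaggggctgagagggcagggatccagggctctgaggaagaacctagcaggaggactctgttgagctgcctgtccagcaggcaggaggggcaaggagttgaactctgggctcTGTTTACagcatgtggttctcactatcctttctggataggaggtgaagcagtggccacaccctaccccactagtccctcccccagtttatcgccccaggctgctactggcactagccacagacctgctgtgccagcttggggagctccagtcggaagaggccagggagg
Mgll, chr6:88724162-88724461: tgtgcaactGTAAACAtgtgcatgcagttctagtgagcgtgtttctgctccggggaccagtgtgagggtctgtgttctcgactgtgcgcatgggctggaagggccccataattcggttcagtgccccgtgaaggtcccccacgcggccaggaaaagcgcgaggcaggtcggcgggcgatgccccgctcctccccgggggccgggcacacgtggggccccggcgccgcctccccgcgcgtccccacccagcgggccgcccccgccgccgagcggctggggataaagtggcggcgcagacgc

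TGTTTAC was present in 3.65% of all windows. The GC box GGGCGG was found in 9 of the 14 windows, belonging to 7 genes, against 35.7% of all windows. TATAAA, found in 13.6% of all windows, and the direct repeat bound by PPAR receptors (0.0396% of all windows) were found in 0 of the 14, as were a looser form of that repeat (0.381%) and the palindromic glucocorticoid element (0.00913%). Both strands were searched, and different motifs overlapped in 0 places in these windows.

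Total counts were 65.3 M to 71.5 M in KO-labelled libraries and 62.3 M to 70.5 M in WT-labelled libraries (M, megacounts), of which 64.8% to 67.8% in KO-labelled libraries and 71.1% to 73.7% in WT-labelled libraries lay in mitochondrial genes and their nuclear copies. Otud1 measured 14.5, 15.6 and 16.8 CPM in KO-labelled libraries and 8.83, 11.6 and 9.83 CPM in WT-labelled libraries (log2 fold change 0.63, adjusted p = 0.0039 by edgeR's quasi-likelihood test), against the direction of the label, so groups are named by their labels only. The part of the gene that was deleted is not stated. The libraries are labelled as aorta, and their extraction text mentions adipose. Smooth muscle Acta2 averaged 49.0 CPM in KO-labelled libraries and 205.7 CPM in WT-labelled libraries. Skeletal muscle Acta1 averaged 6827 CPM in KO-labelled libraries and 4214 CPM in WT-labelled libraries. Acta1 thus lay far above the smooth muscle transcript in both groups. The aorta label is taken as given, and which tissue was dissected is not settled here. The adipocyte hormone Adipoq averaged 75.1 ± 1.10 CPM in KO-labelled libraries and 82.0 ± 4.37 CPM in WT-labelled libraries (SD, n = 3 each). CPM are counts scaled to a common library size after TMM normalization.

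Of the 10 genes, 4 were higher and 2 lower in KO-labelled libraries. Plin4, Plin5, Pnpla2 and Lipe rose, Cidec and Mgll fell, and Plin1, Plin2, Abhd5 and G0s2 did not pass the test. The test was edgeR's quasi-likelihood F-test over 16620 genes, with a Benjamini-Hochberg adjusted p under 0.05 called. Over all tested genes 22.0% were called, 11.5% higher and 10.5% lower. These 10 genes are abundant, and of the 2777 tested genes with a mean CPM at least that of the least abundant of them (19.97, a limit set after the values were seen), 54.4% were called, 36.7% higher and 17.8% lower. The share of 6 in 10 is near that of genes at or above this limit, which is a floor and not a match of abundance. The changes were also modest: the called members moved by 0.18 to 0.47 on the log2 scale in either direction, with a median size of 0.34, against 0.61 for all called genes and 0.45 for called genes of at least that abundance. The median log2 fold change of the 10 was 0.04, against -0.02 over all tested genes. The CPM values of the groups did not overlap for 8 of the 10, 5 with the KO-labelled libraries above and 3 with them below. They did not overlap for 38.6% of all tested genes (19.3% above, 19.4% below) and 68.0% of those at or above the limit of 19.97. Other settings named below called 24.6% of all genes with DESeq2 and 19.6% with a replicate block. With limma on log2(FPKM + 1) they called 33.1%, with pseudocounts of 0.1 and 0.5 they called 30.5% and 32.3%, without a filter 10.7%, after median-ratio scaling 29.2% and after quantile normalization 28.2%. Leaving out 1 library gave 16.4% to 18.2%. In bulk tissue, a change in the number of cells of a type and a change in RNA per cell cannot be told apart. The design text speaks of mice, and no label ties a library to an animal, so the p-values reflect the spread among these 6 libraries.

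**Figure D1:**
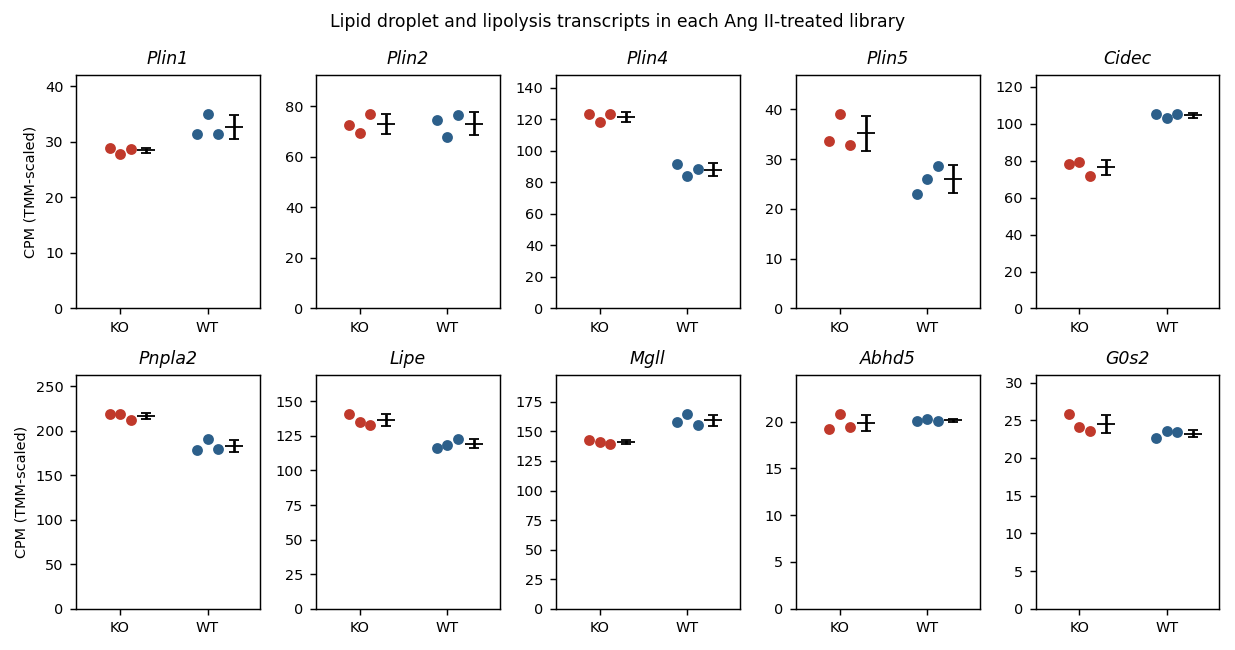
CPM of the 10 genes in each library, with KO-labelled libraries on the left (red) and WT on the right (blue) of each panel. Points are libraries and the black bars are the mean ± SD of 3. Plin4, Plin5, Pnpla2 and Lipe lie higher in KO-labelled libraries, and Cidec and Mgll lower.

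Among the perilipins, the transcripts of Plin4 and Plin5 were higher in KO-labelled libraries. Plin4 (ENSMUSG00000002831), which encodes a perilipin of adipocytes and muscle, measured 123.0, 117.9 and 123.6 CPM in KO-labelled libraries, against 91.7, 83.7 and 88.3 CPM in WT-labelled libraries. The lowest KO-labelled library lay well above the highest WT-labelled one. The fitted change was 0.47 on the log2 scale (1.38-fold higher, SE 0.052, adjusted p = 9.6e-05). Plin5 (ENSMUSG00000011305) measured 33.5, 39.1 and 32.8 CPM in KO-labelled libraries, against 23.0, 26.1 and 28.7 CPM in WT-labelled libraries. The groups did not overlap, but the values spread more than those of Plin4. The fitted change was 0.44 on the log2 scale (1.36-fold higher, SE 0.10, adjusted p = 0.010), and the call was lost without KO-labelled library 2 (0.36, adjusted p = 0.052). It was also not made with limma on FPKM without a filter (adjusted p = 0.050) or after quantile normalization (adjusted p = 0.056). The fold changes of these neighbouring genes had overlapping confidence intervals, 0.35 to 0.58 for Plin4 and 0.21 to 0.67 for Plin5.

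Plin1 and Plin2 did not pass. Plin1 (ENSMUSG00000030546), the perilipin that restrains lipolysis in adipocytes, measured 28.8, 27.9 and 28.6 CPM in KO-labelled libraries, against 31.3, 35.1 and 31.5 CPM in WT-labelled libraries. All KO-labelled libraries lay below all labelled WT, and the second labelled WT stood highest. The log2 fold change was -0.20 (SE 0.077, adjusted p = 0.097, 95% confidence interval -0.37 to -0.027), and adjusted p was 0.023 with DESeq2. Plin2 (ENSMUSG00000028494), the perilipin found on droplets of most cell types, measured 72.6, 69.3 and 77.2 CPM in KO-labelled libraries, against 74.8, 67.9 and 76.5 CPM in WT-labelled libraries. The values interleaved, and the log2 fold change was -0.00054 (SE 0.066, adjusted p = 0.996, 95% confidence interval -0.15 to 0.15), with a sign that turned under several settings, to 0.14 on the deposited FPKM scale.

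Cidec (ENSMUSG00000030278) was the only coat gene of the 5 that was called lower. It measured 78.4, 79.2 and 71.6 CPM in KO-labelled libraries, against 105.3, 103.0 and 105.6 CPM in WT-labelled libraries. The groups were separated by a gap wider than the spread within either. The log2 fold change was -0.45 (SE 0.055), or 1.37-fold lower, with an adjusted p of 0.00018. The size of the fall depended on how libraries were scaled. Limma on log2(FPKM + 1) gave -0.30 (adjusted p = 0.035). The call was lost there with smaller pseudocounts (adjusted p = 0.069 at 0.1 and 0.051 at 0.5) and without a filter (adjusted p = 0.078). With limma the fall was -0.48 after median-ratio scaling of FPKM (adjusted p = 0.0020) and -0.59 after quantile normalization (adjusted p = 0.00077). All settings on counts kept the call.

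Of the lipase transcripts, those acting on triglyceride and diglyceride rose and that acting on monoglyceride fell. Pnpla2 (ENSMUSG00000025509), which encodes ATGL, the enzyme of the first step, measured 219.2, 218.5 and 212.6 CPM in KO-labelled libraries, against 178.6, 190.9 and 179.4 CPM in WT-labelled libraries. The groups did not overlap. The fitted change was 0.24 on the log2 scale (1.18-fold higher, SE 0.043, adjusted p = 0.0020), and it was 0.097 (adjusted p = 0.27) when the deposited FPKM values were quantile normalized. Lipe (ENSMUSG00000003123) measured 141.0, 135.2 and 132.6 CPM in KO-labelled libraries, against 116.4, 118.4 and 122.8 CPM in WT-labelled libraries. Here too the groups were apart, with a log2 fold change of 0.19 (SE 0.047, adjusted p = 0.013). The Lipe call did not survive omission of WT-labelled library 1 (0.18, adjusted p = 0.061) or KO-labelled library 1 (0.17, adjusted p = 0.057), and was not made on FPKM after median-ratio scaling (adjusted p = 0.10) or quantile normalization (adjusted p = 0.37). Lipe lies within the antisense gene 4732471J01Rik, whose counts were 18, 19 and 26 in KO-labelled libraries and 9, 15 and 1 in WT-labelled libraries.

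Mgll (ENSMUSG00000033174) measured 142.6, 141.3 and 139.4 CPM in KO-labelled libraries, against 157.6, 164.9 and 155.9 CPM in WT-labelled libraries. All KO-labelled libraries lay below all labelled WT. The log2 fold change was -0.18 (SE 0.043, adjusted p = 0.013). The call was lost without the second or the third library labelled KO (-0.18 and -0.17, adjusted p = 0.056 and 0.053), and on the deposited FPKM scale the change was -0.024 (adjusted p = 0.82). On that scale the median of all tested genes stood at 0.11, against -0.02 for counts, and 76.7% of called genes were higher, against 52.1%.

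The transcripts of both regulators of ATGL were measured at levels that did not differ detectably. Abhd5 (ENSMUSG00000032540), the co-activator, measured 19.3, 20.8 and 19.4 CPM in KO-labelled libraries, against 20.06, 20.26 and 20.01 CPM in WT-labelled libraries. The values interleaved. The log2 fold change was -0.02 (SE 0.083, adjusted p = 0.90), with a 95% confidence interval of -0.20 to 0.16, and its sign turned on the deposited FPKM scale (0.10). G0s2 (ENSMUSG00000009633), the inhibitor, measured 25.8, 24.1 and 23.6 CPM in KO-labelled libraries, against 22.7, 23.6 and 23.4 CPM in WT-labelled libraries. The groups touched without overlapping. The log2 fold change was 0.08 (SE 0.080, adjusted p = 0.55), with a confidence interval of -0.10 to 0.26, and the sign turned when FPKM was quantile normalized (-0.087). G0s2 lies inside Lamb3, a gene on the other strand with 100, 125 and 109 counts in KO-labelled libraries and 57, 29 and 55 in WT-labelled libraries, and the strand setting of the counting is not given. G0s2 itself had 1841, 1760 and 1715 counts in KO-labelled libraries and 1523, 1417 and 1464 in WT-labelled libraries.

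**Figure D2:**
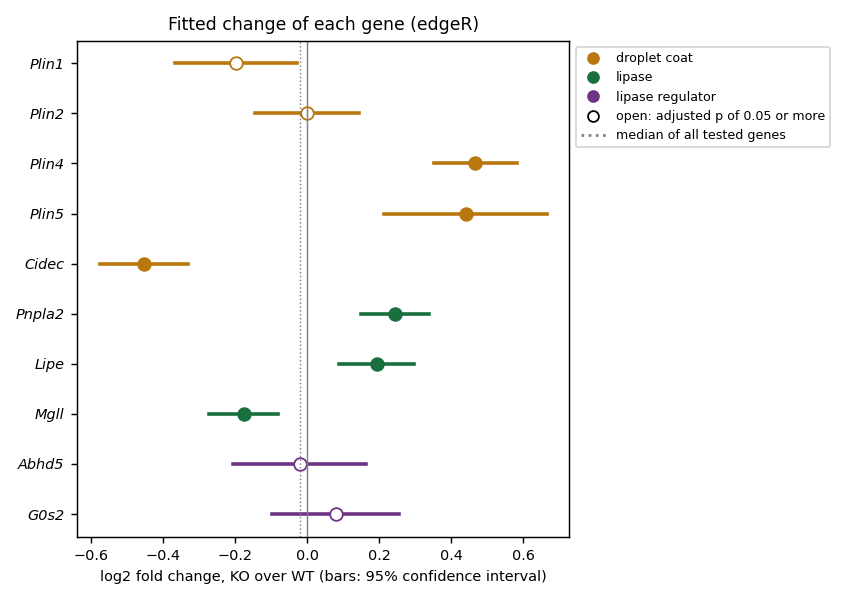
Log2 fold change of each gene, KO-labelled libraries over WT-labelled libraries, from edgeR, with 95% confidence intervals as bars and colours for the role of the protein. Filled points have an adjusted p under 0.05, and the dotted line marks the median of all tested genes (-0.02). Plin4 (0.47) and Cidec (-0.45) lie farthest from 0.

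Levels of different genes were compared on the deposited FPKM values, which are per length of transcript. Pnpla2 was the most abundant of the 10 in both groups, at 68.5 ± 3.42 FPKM in KO-labelled libraries and 52.0 ± 1.57 FPKM in WT-labelled libraries (SD, n = 3 each). Cidec came second, at 39.3 ± 3.21 FPKM in KO-labelled libraries and 48.5 ± 2.89 FPKM in WT-labelled libraries. In the KO-labelled libraries the ranges of Pnpla2 (65.2 to 72.0) and Cidec (35.7 to 41.9) were far apart, while in WT-labelled libraries the ranges of Pnpla2 (50.5 to 53.6) and Cidec (45.6 to 51.4) overlapped. G0s2 and Mgll followed. G0s2 averaged 26.9 ± 2.28 FPKM in KO-labelled libraries and 22.9 ± 1.16 FPKM in WT-labelled libraries. Mgll averaged 26.5 ± 1.24 FPKM in KO-labelled libraries and 27.0 ± 0.654 FPKM in WT-labelled libraries. The pair overlapped in KO-labelled libraries, and Mgll lay above G0s2 in all WT-labelled libraries.

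Lipe averaged 22.1 ± 1.5 FPKM in KO-labelled libraries and 17.4 ± 1.24 FPKM in WT-labelled libraries, and Plin2 averaged 19.8 ± 1.05 FPKM in KO-labelled libraries and 17.9 ± 1.91 FPKM in WT-labelled libraries. Lipe lay above Plin2 in KO-labelled libraries with no overlap, whereas the ranges of these genes overlapped in WT-labelled libraries. Plin4 averaged 18.3 ± 0.878 FPKM in KO-labelled libraries and 11.9 ± 0.937 FPKM in WT-labelled libraries, and Plin5 averaged 16.1 ± 1.56 FPKM in KO-labelled libraries and 10.7 ± 1.54 FPKM in WT-labelled libraries. Plin2, Plin4 and Plin5 thus formed a run of overlapping ranges in KO-labelled libraries, while in WT-labelled libraries the range of Plin2 lay above those of Plin4 and Plin5, which overlapped. Plin1 averaged 5.83 ± 0.272 FPKM in KO-labelled libraries and 6.01 ± 0.232 FPKM in WT-labelled libraries, below Plin2, Plin4 and Plin5 in both groups. Abhd5 was lowest, at 3.17 ± 0.144 FPKM in KO-labelled libraries and 2.90 ± 0.12 FPKM in WT-labelled libraries. Among the tested genes Pnpla2 stood at percentile 98.1 in KO-labelled libraries and 98 in WT-labelled libraries, and Abhd5 at percentile 75.2 in KO-labelled libraries and 76 in WT-labelled libraries.

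**Figure D3:**
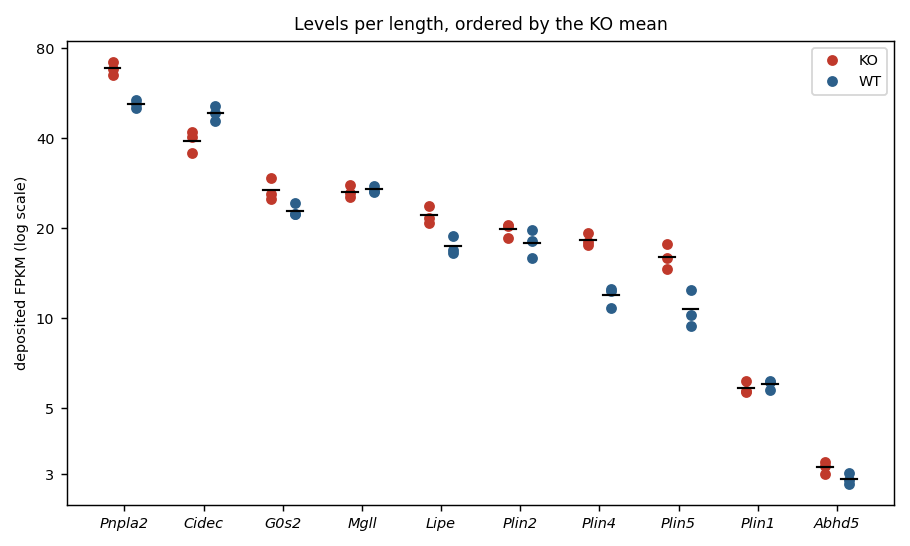
Deposited FPKM of each gene on a log axis, ordered by the mean of the KO-labelled libraries (red, left of each pair), with WT-labelled libraries in blue. Points are libraries and the black line is the mean. Pnpla2 and Cidec are separated in KO-labelled libraries and close in WT-labelled libraries.

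Ratios between transcripts within a library do not depend on a factor that scales the whole library. Quantile normalization is not such a factor and can change them. They are given as a description with no test. Mgll stood at 0.387, 0.385 and 0.390 of the FPKM of Pnpla2 in KO-labelled libraries, against 0.525, 0.514 and 0.517 in WT-labelled libraries. The spread within each group was small beside this gap. The inhibitor G0s2 stood at 0.409, 0.382 and 0.385 of Pnpla2 in KO-labelled libraries, against 0.440, 0.428 and 0.452 in WT-labelled libraries. The co-activator Abhd5 stood at 0.0445, 0.0483 and 0.0462 of Pnpla2 in KO-labelled libraries, against 0.0568, 0.0538 and 0.0565 in WT-labelled libraries. Both regulators were thus lower relative to their lipase in every library labelled KO, with Pnpla2 as the member of each pair that passed the test. Lipe kept close to Pnpla2, at a mean ratio of 0.322 ± 0.00662 in KO-labelled libraries and 0.335 ± 0.0163 in WT-labelled libraries (SD, n = 3 each), with overlapping ranges. The ratio of Plin5 to Pnpla2 also overlapped, at 0.235 ± 0.0212 in KO-labelled libraries and 0.205 ± 0.0232 in WT-labelled libraries.

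Within the coat, Plin4 stood at 3.13, 3.10 and 3.16 times the FPKM of Plin1 in KO-labelled libraries, against 2.15, 1.75 and 2.06 times in WT-labelled libraries, the widest gap of the 9 ratios (0.66 on the log2 scale). Cidec stood at 6.83, 7.13 and 6.27 times Plin1 in KO-labelled libraries, against 8.43, 7.38 and 8.42 times in WT-labelled libraries. Plin5 stood at 0.778, 0.950 and 0.716 of Plin2 in KO-labelled libraries, against 0.518, 0.646 and 0.631 in WT-labelled libraries. Plin1 stood at 0.299, 0.303 and 0.280 of Plin2 in KO-labelled libraries, against 0.316, 0.389 and 0.310 in WT-labelled libraries, with WT-labelled library 2 apart from the rest. Ranges did not overlap in 7 of the 9 ratios. The ratios are not independent, since several share Pnpla2 or Plin1. The share among ratios of other gene pairs was not computed, so this count has no background. Of single genes with a mean CPM of at least 19.97, 68.0% did not overlap.

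**Figure D4:**
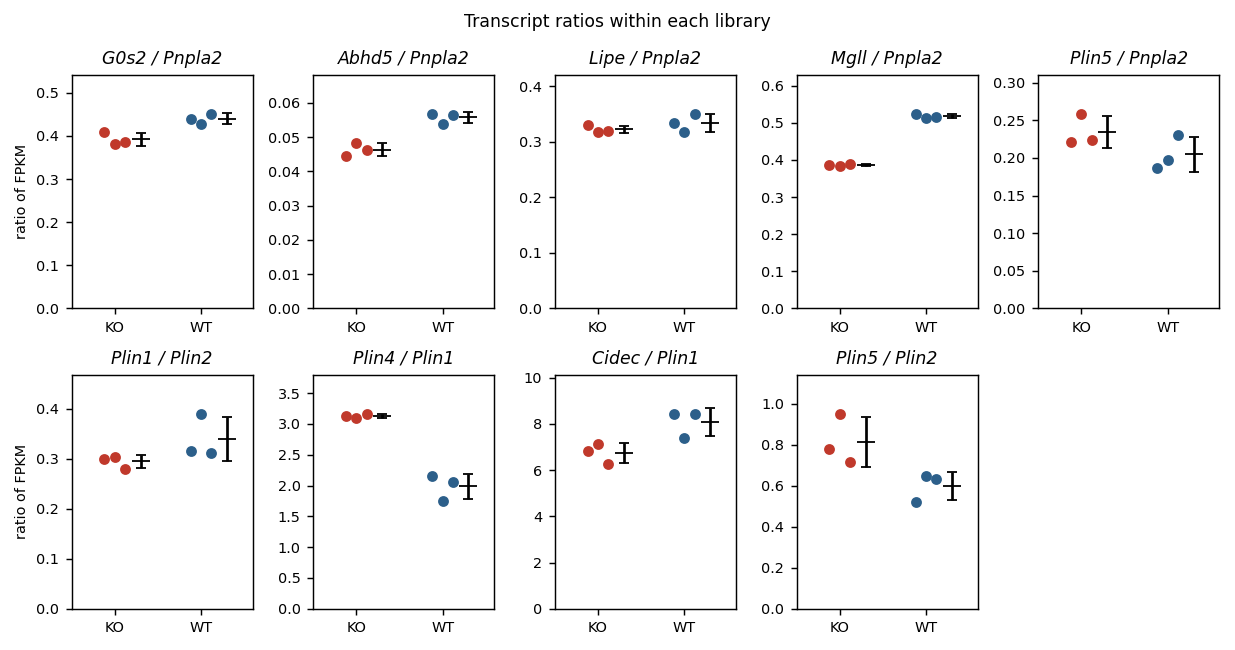
Ratios of deposited FPKM between pairs of the genes in each library, with KO-labelled libraries on the left (red) and WT on the right (blue), and the mean ± SD of 3 as black bars. Mgll relative to Pnpla2 lies near 0.39 in KO-labelled libraries and above 0.51 in WT-labelled libraries, and Plin4 relative to Plin1 lies above 3 in KO-labelled libraries and below 2.2 in WT-labelled libraries.

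Genes around these 10 were taken from 6 lists of the same pathway, with 108 tested genes after the members were left out. Of these 31 (28.7%) were higher and 14 (13%) lower in KO-labelled libraries, with a median log2 fold change of 0.11 against -0.02 over all tested genes. Over all tested genes 11.5% were higher and 10.5% lower, below the shares of these lists. Among the 2777 genes at least as abundant as the least abundant of the 10, 36.7% were higher and 17.8% lower, above those shares. The lists were not cut at that abundance and hold rarer genes, so the second comparison is between unlike sets. In triglyceride synthesis 8 of 14 tested genes were higher and 1 lower, with a median of 0.41, the highest of the 6 lists. Gpd1, which makes the glycerol phosphate backbone, measured 708.4, 683.7 and 676.7 CPM in KO-labelled libraries, against 373.6, 366.2 and 357.3 CPM in WT-labelled libraries (log2 fold change 0.91, adjusted p = 2.8e-08). Dgat1, which adds the last fatty acid, rose by 0.48 and the acyltransferase Agpat3 by 0.45. Pck1, a source of glycerol phosphate when glucose is scarce, was the gene of the list that fell (-0.92, adjusted p = 9.2e-07).

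Of 23 tested genes for other droplet proteins, 5 were higher and 4 lower, with a median of -0.0088. On log2(FPKM + 1), where 21 were tested, 6 were higher and 2 lower. Plin3, the remaining perilipin gene of the mouse, measured 31.4, 33.4 and 31.4 CPM in KO-labelled libraries, against 18.8, 18.1 and 20.1 CPM in WT-labelled libraries. Its log2 fold change was 0.75 (SE 0.081, adjusted p = 7.4e-05), beside 0.47 for Plin4 and 0.44 for Plin5. The differences between these genes were not tested. Fitm2, needed for droplets to bud from the endoplasmic reticulum, rose by 0.50. Cavin1, a caveola coat protein also found in fat cells, fell by 0.52, and Rab8a, a small GTPase, fell by 0.75, a call not made on FPKM without a filter. The median of this list turned sign when libraries were left out, reaching 0.086 without WT-labelled library 1. Of 16 tested genes for other lipases and fatty acid handling, 3 were higher and 1 lower, with a median of 0.06. Lpl, the lipase that takes fatty acids from blood lipoproteins, rose by 0.43, and the lipases Ddhd2 and Pnpla8 by 0.52 and 0.26. Fabp4, the fatty acid binding protein of adipocytes, fell by 0.15 (adjusted p = 0.0020), and did not pass on the unscaled FPKM values. The Pnpla8 call did not survive omission of WT-labelled library 1, of any KO-labelled library, or median-ratio or quantile scaling of FPKM. On log2(FPKM + 1), where 15 genes of this list were tested, 4 were higher and 0 lower. After quantile normalization 1 was higher and 4 lower, Lpl among the calls no longer made. Without KO-labelled library 1 there were 2 higher and 2 lower, and without WT-labelled library 3 the median was -0.028.

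Hormonal control of lipolysis was split, with 3 of 28 tested genes higher and 6 lower and a median of 0.03. Adcy5, an adenylate cyclase, averaged 2.95 ± 0.0857 CPM in KO-labelled libraries and 9.41 ± 0.592 CPM in WT-labelled libraries (SD, n = 3 each, log2 fold change -1.68, adjusted p = 1.1e-05). Prkar1a, a regulatory subunit of protein kinase A, fell by 0.63, and Gnai2, an inhibitory G protein subunit, fell by 0.31, a call not made on the unscaled FPKM values. Gnas, the stimulatory subunit, rose by 0.20, with a sign that turned under quantile normalization (-0.0049). The call of Gnas was not made after median-ratio or quantile scaling of FPKM, nor that of Prkar1a on FPKM without a filter. On FPKM 22 genes of this list were tested with limma. The split changed there, with 6 higher and 2 lower on log2(FPKM + 1) and 1 higher and 4 lower after quantile normalization. It also depended on single libraries: 1 was higher and 3 lower without KO-labelled library 1 (median -0.012), 1 higher and 4 lower without KO-labelled library 2, and 3 higher and 3 lower without WT-labelled library 2. Omission of WT-labelled library 1 gave 2 higher and 5 lower, and omission of KO-labelled library 3 or WT-labelled library 3 gave 2 higher and 4 lower. Of 15 transcription factors known to act on droplet genes, 4 were higher and 2 lower, with a median of -0.07 whose sign was not stable. It was 0.049, -0.175 and 0.011 without KO-labelled library 1, 2 or 3, and 0.019 without WT-labelled library 2. On log2(FPKM + 1), with 14 of the factors tested, it was 0.10. Pparg and Cebpa, the main factors of adipocyte identity, fell by 0.83 and 0.70. Mlxipl, the carbohydrate response factor, rose by 0.61, and Srebf1, the factor of fatty acid synthesis, by 0.45. Of 12 genes of fatty acid oxidation in muscle, 8 were higher and 0 lower, with a median of 0.21, among them Ucp3 (1.05), Hadha (0.49), Cpt1b (0.45) and Acadvl (0.44). After median-ratio scaling of FPKM 5 of them were higher and 0 lower, and after quantile normalization 4 were higher and 1 lower, with a median of 0.11. On counts, 1 was lower with DESeq2, a mean CPM of at least 1, robust fitting, mitochondrial genes removed or counts divided by 4. Without WT-labelled library 1 or KO-labelled library 2 or 3, 6 were higher and 0 lower.

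**Figure D5:**
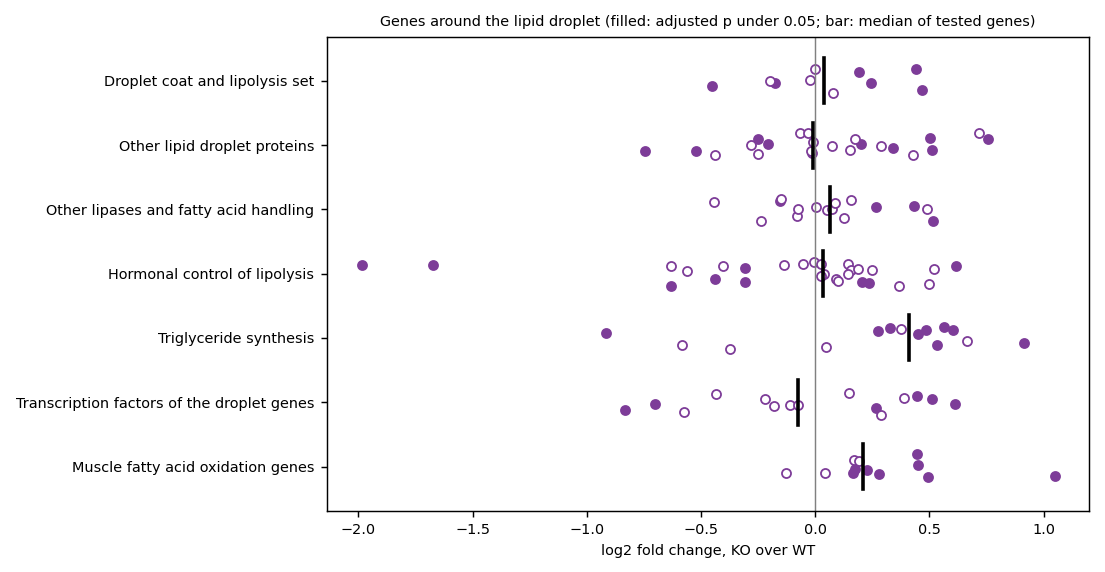
Log2 fold change, KO-labelled libraries over WT-labelled libraries, of the 10 genes and of each list of surrounding genes. Each point is a gene, filled where its adjusted p was under 0.05, and the black bar is the median of the list. Triglyceride synthesis has the highest median (0.41), and the 10 genes spread on both sides of 0.

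Markers of the cell types that could carry these transcripts moved between the same libraries. Of 15 general adipocyte markers 6 were higher and 5 lower, and their summed level ran from 4376 to 4424 CPM in KO-labelled libraries and from 4178 to 4237 CPM in WT-labelled libraries. Slc2a4 and Thrsp, the markers with the smallest p, rose by 0.99 and 0.71. The median log2 fold change of the list was -0.07, and its genes ran from -1.59 to 0.99. Adipoq did not pass (-0.13, adjusted p = 0.15). The list shares Pparg, Cebpa, Fabp4, Lpl, Aqp7 and Adrb3 with the pathway lists. On log2(FPKM + 1), where 14 of its genes were tested, 7 were higher and 3 lower. Of 13 tested brown adipocyte markers 6 were higher and 3 lower, with sums of 989.4 to 1053 CPM in KO-labelled libraries and 887.8 to 898.4 CPM in WT-labelled libraries. Ucp1, the uncoupling protein, measured 411.6, 384.2 and 369.5 CPM in KO-labelled libraries, against 227.4, 235.1 and 232.7 CPM in WT-labelled libraries, and Dio2 fell by 1.30. The mean rise of Ucp1 was larger than that of the summed list. The other brown markers together were therefore not higher in summed CPM. On FPKM 12 brown markers were tested. On log2(FPKM + 1) 8 of them were higher and 1 lower, and after quantile normalization 4 were higher and 3 lower. Without KO-labelled library 2 there were 3 higher and 2 lower, without WT-labelled library 1 or KO-labelled library 1 there were 4 higher and 2 lower, without KO-labelled library 3 there were 4 higher and 3 lower, and without WT-labelled library 2 there were 6 higher and 2 lower. The brown list shares Cidea and Ppargc1a with the pathway lists. It also holds Zic1 and Lhx8, which were too rare to test, at means of 0.036 and 0.046 CPM in KO-labelled libraries and 0.044 and 0.097 CPM in WT-labelled libraries.

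Skeletal muscle contributed 18 markers, 11 of them higher and 4 lower. Their sums were 35489 to 36593 CPM in KO-labelled libraries and 28794 to 29272 CPM in WT-labelled libraries. The 2 with the smallest p, Myh2 (1.04) and Myh4 (1.43), rose, while the median of the list was 0.29 and its genes ran from -0.78 to 1.43. All 10 fibroblast markers were lower, with sums of 542.3 to 546.8 CPM in KO-labelled libraries and 1187 to 1216 CPM in WT-labelled libraries, as were 8 of 10 smooth muscle markers, with 1 higher and sums of 273.3 to 277.3 CPM in KO-labelled libraries and 621.4 to 633.8 CPM in WT-labelled libraries. Col1a2 and Dcn fell by 2.18 and 1.69, and Acta2 and Tagln by 2.07 and 1.92. Of 10 macrophage markers, whose cells carry Plin2-coated droplets when laden with lipid, 6 were lower and 0 higher, with sums of 127.9 to 130.6 CPM in KO-labelled libraries and 188.9 to 201.4 CPM in WT-labelled libraries, and Lyz2 and Csf1r fell by 0.79 and 0.71, the Csf1r call not being made on FPKM without a filter. Of 10 endothelial markers 2 were higher and 4 lower, with sums of 577.3 to 585.9 CPM in KO-labelled libraries and 617.8 to 641.2 CPM in WT-labelled libraries, Vwf rising by 1.27 and Egfl7 falling by 0.54. On log2(FPKM + 1) 2 endothelial markers were higher and 2 lower, and without KO-labelled library 2 or 3 or WT-labelled library 2 there were 1 higher and 3 lower. Of 7 tested hepatocyte markers 6 were lower and 0 higher, with sums of 95.8 to 101.7 CPM in KO-labelled libraries and 198.8 to 202.1 CPM in WT-labelled libraries, and Alb and Cyp2e1 fell by 3.31 and 0.38, the Cyp2e1 call not being made at pseudocounts of 0.1 and 0.5 on FPKM. The part of these cell types in the values of the 10 genes was not tested.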

How the data were processed

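Poly(A) RNA of 6 libraries was sequenced as paired reads, per the labels' protocols, and grouped by the genotype label. The authors deposited whole-number counts per gene, with no normalization, and FPKM values, per the file headers. FPKM per count differed between libraries only by a library factor, within 1% in 99.5% of the 8417 genes checked. Bowtie 0.12.2, HISAT2 2.0 and mm8 appear in the submitters' processing notes without their roles, and neither a counting program nor a strand setting is named. Coordinates matched GENCODE M21 (GRCm38) for 91.2% of shared genes, so that build is named. Between 33.0% and 34.9% of counts from 1 to 40 were multiples of 4, against 25% by chance, so counts may overstate independent fragments. There were 0 unnamed rows and 0 columns left aside.

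Genotype was tested on counts in edgeR 4.0.16 under R 4.3.3, with filterByExpr, TMM scaling, the quasi-likelihood F-test, two-sided, and Benjamini-Hochberg adjustment over all tested genes at a threshold of 0.05. Confidence intervals use the fit's standard error and degrees of freedom. Alternatives were DESeq2 1.42.0, its size factors, other filters, robust fitting, a replicate block, removal of mitochondrial genes, counts divided by 4, leaving out each library, and limma 3.58.1 on log2(FPKM + 1) with other pseudocounts and scalings. Scripts were tested on simulated data. The 10 genes and all lists were chosen with earlier results of these data known. All 10 genes are named, with the 4 genes of smallest p in each pathway list and 2 in each marker list, plus Otud1, Adipoq, Ucp1, Acta1 and Acta2; Lamb3, 4732471J01Rik, Zic1 and Lhx8 were named after their values were seen. Spart is listed as Spg20. Motifs were searched in RefSeq windows.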

Additional observations from a re-analysis of the deposited data

How the results depend on the processing

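Across 20 alternatives Plin4 kept its direction and call (log2 fold change 0.33 to 0.61). The number of the 10 genes called ran from 3 to 7, and was 6 with 4 higher in the fit reported. Leaving out 1 library gave 4 to 6 called genes, 1 or 2 of them lower. On the deposited FPKM scale with limma, the number lower was 1 with a pseudocount of 1, 0 with 0.1, 0 with 0.5 and 0 without a filter, where 3 were called in all; after quantile normalization 1 was higher. Pathway genes called lower numbered 7, 7, 7 and 5 in those 4 unscaled FPKM settings, against 14, and 20 were higher after quantile normalization, against 31. The FPKM settings tested 97 pathway genes with the filter and 111 without it, against 108 on counts. Over the whole table they tested 10726 and 28426 genes, against 16620. Genes called lower over the whole table numbered 829, 781, 824 and 857 there and 2630 with DESeq2, against 1751. Plin2 turned sign with DESeq2 and without a filter on counts (0.0019 each), on FPKM (0.14, 0.15, 0.15 and 0.14), and between -0.054 and 0.036 when 1 library was left out. Abhd5 turned on FPKM (0.10, 0.13, 0.11 and 0.10) and ranged from -0.057 to 0.00057 when 1 library was left out, and G0s2 turned after quantile normalization (-0.087). The median of all genes was 0.11, 0.17 and 0.14 at pseudocounts of 1, 0.1 and 0.5, against -0.02 for counts; the cause of these turns was not tested. The Plin1 call was gained with DESeq2, a mean CPM of at least 1 and quantile normalization (adjusted p = 0.023, 0.047 and 0.033).

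With a replicate block 6 of the 10 genes, 44 of the pathway genes and 3255 genes in all were called, with no change of call among the 10. Deviations of same-numbered libraries correlated at 0.049, 0.0076 and 0.033, and those of differently numbered ones at -0.086 to 0.053. The values show no pairing by number, but with 3 libraries per group they cannot exclude it. The ratio of counts per length was not run, since the table used gives no length. The 10 genes had at least 1218 counts in every library, so low depth touches only rarer genes of the lists.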
